A study of Mus musculus with 31 samples.

Results

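The effect of dexamethasone was measured in macrophages that had also received the BRD9 inhibitor iBRD9, by setting the 3 libraries of cells given dexamethasone, iBRD9 and lipopolysaccharide against the 3 libraries of cells given iBRD9 and lipopolysaccharide. These 6 libraries were chosen by their titles from the 31 libraries of the series, 21 of which belong to the experiment analysed here. The cells were macrophages, cultured from marrow that was taken from C57BL/6J mice (males, aged 6 to 12 weeks). They grew with L-929 conditioned medium and were then plated without serum. Both groups received iBRD9 overnight and then lipopolysaccharide (LPS, a cell wall component of Gram-negative bacteria) at 100 ng/ml for 3 h, so neither group is an untreated one. The group named Dex + iBRD9 + LPS also received dexamethasone (Dex) at 1 µM overnight. The other groups used beside them were LPS alone, Dex + LPS, vehicle, and the pair dBRD9 + LPS and Dex + dBRD9 + LPS, where dBRD9 is a compound that degrades the BRD9 protein and was given at 250 nM.

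Dexamethasone is a synthetic glucocorticoid. It binds the glucocorticoid receptor, a ligand-activated transcription factor that raises genes with glucocorticoid response elements near them and, in macrophages, lowers many of the inflammatory genes that NF-kB, AP-1 and the interferon regulatory factors switch on after LPS is sensed by Toll-like receptor 4. BRD9 is a bromodomain protein, which reads acetylated lysines, and defines the non-canonical BAF complex, which remodels chromatin. iBRD9 occupies its bromodomain and leaves the protein in place. The series title names the activity of the glucocorticoid receptor as one of its subjects, and the comparison asks which part of the dexamethasone response is measured when the inhibitor is present.

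The labels state iBRD9 at 3 or 10 µM and do not say which group received which dose, so a dose of inhibitor that differed between the 2 groups cannot be told apart from the effect of Dex. The labels also do not say whether the 3 libraries of a group came from separate mice or cultures. The p-values and standard errors (SE) therefore measure only the spread between libraries within groups. That spread was estimated over all 21 libraries of the experiment, with 14 residual degrees of freedom, and not from the 6 libraries alone. The 6 libraries held 19.4 to 29.9 M counts. Replicates of a group differed by a chi-square of 2.34 to 5.98 per degree of freedom, where 1 is counting error alone. The 2 libraries of the experiment that stood furthest from their groups were replicate 1 of Dex + LPS and replicate 1 of Dex + dBRD9 + LPS, with values of 12.4 to 44.8. Neither enters the 2 groups compared, but they share the fit and enter the comparisons set beside it. Replicate 3 of vehicle, which enters LPS against vehicle, differed from replicates 1 and 2 by 11.4 each, beside 2.36 between those. No alternative left it out. Of 14 macrophage markers tested, 11 were called higher and 2 lower with Dex. Their summed level was 17947 to 18216 CPM (counts scaled to a common library size) in iBRD9 + LPS and 24912 to 26863 CPM in Dex + iBRD9 + LPS. Some defining markers of other cells had no count in all 6 libraries, among them Ly6g and Mpo of neutrophils, Ms4a1 and Pax5 of B cells, Cd3g and Cd8a of T cells, and Col1a1 and Col3a1 of stromal cells. Others were present: the summed level went from 122 to 127 CPM to 90.8 to 106 CPM for 9 B cell markers, mostly through Blnk and Ighm, from 2.78 to 4.56 CPM to 0.751 to 1.54 CPM for 11 T and NK cell markers, from 317 to 363 CPM to 262 to 274 CPM for 9 dendritic cell markers, and from 113 to 138 CPM to 95.4 to 101 CPM for 8 osteoclast markers. The T and NK sum was mostly Cd4, and 10 of its 11 markers were under 1 CPM in all 6 libraries. The dendritic sum was mostly Itgax and Bst2. Of 6 dendritic markers tested, these 2 were called lower, and 2, Flt3 and Zbtb46, were called higher at low levels. Of 6 osteoclast markers tested, 2, Acp5 and Ocstamp, were called higher, and 3, Dcstamp, Itgb3 and Nfatc1, were called lower. In bulk RNA, fewer cells of a type and less RNA per cell cannot be told apart.

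With the inhibitor present, Dex raised glucocorticoid receptor targets such as Tns1, Tsc22d3 and Fkbp5 by 14.8- to 116-fold and lowered prostaglandin synthase Ptgs2, Nos2, Il1b, Il12b and Ccl22 by 4.1- to 15.7-fold. Tnf was not called at the threshold of the test, and Il6 rose. Of 12662 genes tested, 3251 were called higher and 3050 lower with Dex, at an adjusted p under 0.05 in edgeR's quasi-likelihood test. That is 25.7% called higher, 24.1% called lower and 49.8% called in either direction of all genes tested, and these shares are the background for each count below. At least 2-fold changes were called for 830 genes that rose (6.56%) and 613 that fell (4.84%), and the median log2 fold change of all genes was 0.02. With a stricter filter that needs a mean of 10 CPM in a group, the genes called at least 2-fold higher and lower numbered 355 and 251.

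**Figure D1:**
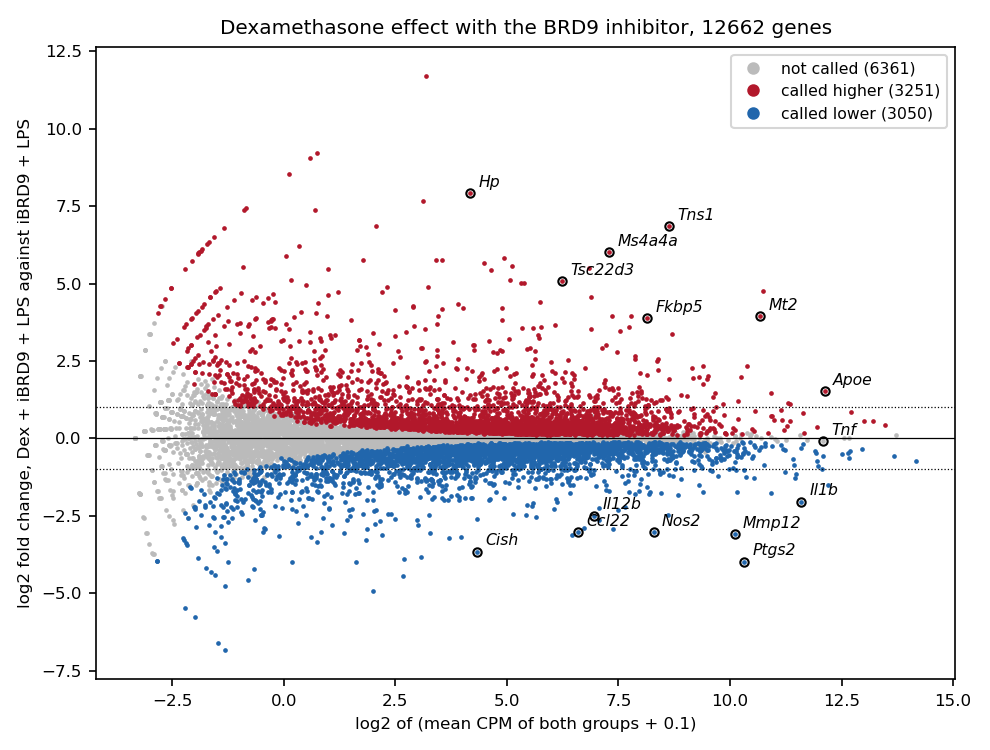
Each point is 1 of 12662 genes, with the mean level of both groups on the horizontal axis (log2 of CPM + 0.1) and the log2 fold change of Dex + iBRD9 + LPS against iBRD9 + LPS on the vertical axis. Red points are the 3251 genes called higher, blue points the 3050 called lower, grey points are not called, and dotted lines mark 2-fold; Tns1 and Ptgs2 lie far from 0 at high levels, and Tnf lies near it.

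The genes that LPS itself changed were taken from the vehicle and LPS groups, which share no library with the 2 groups compared. Of 1872 genes called at least 2-fold higher with LPS (14.8% of all genes), Dex in the presence of iBRD9 lowered 473 (25.3%) and raised 709 (37.9%). The share lowered is near the 24.1% of all genes, and the share raised is above the 25.7% of all genes. Of 2300 genes called at least 2-fold lower with LPS (18.2%), 500 (21.7%) were called higher and 480 (20.9%) lower. When scaled by library totals alone, LPS against vehicle had its median over all genes moved from -0.05 to -0.56, and 1230 genes were then at least 2-fold higher with LPS. Of those 1230, 307 fell and 498 (40.5%) rose with Dex.

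Glucocorticoid receptor targets moved mostly upward. Of 35 classic targets tested, 25 were called higher and 7 lower, with a median log2 fold change of 1.66 beside 0.02 for all genes. Tsc22d3, which encodes the glucocorticoid-induced leucine zipper protein GILZ and lies on chromosome X (140539528 to 140600659, mm10), stood at 4.07, 4.68 and 4.11 CPM in iBRD9 + LPS and at 137, 155 and 144 CPM in Dex + iBRD9 + LPS. All 3 Dex libraries lay far above the others, and such a lack of overlap between the groups was seen for 61.4% of all genes. The log2 fold change was 5.08 ± 0.10 (SE, n = 3 and 3, edgeR adjusted p = 4.1e-21). Fkbp5, a co-chaperone of the receptor on chromosome 17 (28399094 to 28517527), stood at 36.6, 34.2 and 36.2 CPM without Dex and at 538, 524 and 519 CPM with it. The groups did not overlap, and the log2 fold change was 3.88 ± 0.06 (SE). Tns1, which encodes the focal adhesion protein tensin 1 on chromosome 1 (73910231 to 74124449), went from 6.98, 7.25 and 6.24 CPM to 810.4, 807 and 756 CPM, a log2 fold change of 6.85 ± 0.12 (SE).

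Other receptor targets rose by smaller steps. Dusp1, a phosphatase that switches off MAP kinases, rose from 116 to 124 CPM across its 3 libraries to 543 to 559 CPM (log2 fold change 2.21 ± 0.05, SE). Klf9, a repressor of the Krüppel-like family, rose from 5.56 to 6.84 CPM to 69.7 to 80.4 CPM (3.57 ± 0.13). Per1, the period gene of the circadian clock, rose by 2.05 ± 0.06 on the log2 scale and the metallothionein Mt2 by 3.96 ± 0.07. The 7 targets that fell were Zfp36, Nfkbia, Anxa1, Rgs2, Errfi1, Fkbp4 and Arl4d, and those other than Zfp36 are named here after their values were seen. Zfp36, which encodes the mRNA decay factor tristetraprolin, stood at 1409, 1416 and 1425 CPM without Dex and at 738, 722 and 717 CPM with it. Its log2 fold change was -0.97 ± 0.07 (SE), and the groups did not overlap.

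The promoter sequence of a raised target is shown because the letters of a palindromic glucocorticoid receptor element are rare near start sites. The window is the 250 bases before the RefSeq start of the metallothionein gene Mt1 (GRCm38.p6, chr8:94178839-94179088, plus strand), written 5′ to 3′, with a match to the element in capitals. The element was searched on both strands as G, any base, ACA, any 3 bases, TGT, any base and C.

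Mt1: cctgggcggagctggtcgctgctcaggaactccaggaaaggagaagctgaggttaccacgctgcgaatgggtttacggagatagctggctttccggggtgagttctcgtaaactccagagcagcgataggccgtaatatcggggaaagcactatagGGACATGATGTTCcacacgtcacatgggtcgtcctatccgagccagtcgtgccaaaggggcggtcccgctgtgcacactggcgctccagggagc

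Mt1 was picked after its match and its values were seen. It stood at 458, 424 and 442 CPM in iBRD9 + LPS and at 2311, 2226 and 2199 CPM in Dex + iBRD9 + LPS. All 3 Dex libraries were about as high as each other, and the log2 fold change was 2.35 ± 0.06 (SE). Of 30 targets with a promoter in the RefSeq table, 2 (Mt1 and Sgk1) hold this motif within 250 bases before to 50 bases after a start. In windows of the same 300 bases it occurs in 0.261% of windows of the genes tested (32 of 12265) and in 0.475% of all windows. Genes called at least 2-fold higher held it in 6 of 812 windows (0.739%). Those at least 2-fold lower held it in 1 of 566 (0.177%), and these counts are too small to compare. The table matched 9606 of the genes tested by symbol, and a match describes letters only.

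Nr3c1, which encodes the receptor, stood at 159.6, 167 and 168 CPM without Dex and at 132, 129 and 135 CPM with it (log2 fold change -0.32 ± 0.10, SE, edgeR adjusted p = 0.013). Of 17 receptor, chaperone and cofactor genes tested, 4 were called higher and 6 lower. The chaperone Hsp90aa1 fell from 568, 594 and 573 CPM to 284, 295 and 287 CPM, and the coactivator Ncoa2 rose by 0.76 ± 0.13 (SE) on the log2 scale.

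Inflammatory cytokine genes split. Of 26 tested, 13 were called lower and 9 higher, with a median log2 fold change of -0.13. Il1b, the secreted pyrogen interleukin 1 beta on chromosome 2 (129364570 to 129371139), stood at 4807, 5356 and 4708 CPM in iBRD9 + LPS and at 1244, 1196 and 1177 CPM with Dex added. Every Dex library lay below every other, with a log2 fold change of -2.04 ± 0.06 (SE). Il1a fell by 1.80 on the log2 scale, and Il12b, a subunit shared by interleukins 12 and 23, fell from 215, 209.6 and 204 CPM to 40.9, 36.8 and 34.0 CPM (-2.49 ± 0.07). Osm, which encodes the interleukin 6 family cytokine oncostatin M, went from 16.2, 18.9 and 16.5 CPM to 2.10, 1.60 and 2.48 CPM. Il10, an anti-inflammatory cytokine, also fell (-2.29 ± 0.33, SE), from levels of 2.64 to 4.23 CPM.

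Tnf stood at 4472, 4658 and 4263 CPM in iBRD9 + LPS and at 4348, 4217 and 4068 CPM in Dex + iBRD9 + LPS. The groups overlapped, and the log2 fold change of -0.08 ± 0.04 (SE) was not called (edgeR adjusted p = 0.12). Over the alternatives, it passed the threshold when only the 2 groups entered the fit (adjusted p = 0.029) and when both libraries that stood apart were left out (adjusted p = 0.036), at a similar size of -0.09 and -0.08. Il6 stood at 138, 157 and 127 CPM without Dex and at 214, 184 and 169 CPM with it. All 3 Dex libraries lay above the others, with a log2 fold change of 0.43 ± 0.08 (SE). Among the cytokines that rose, Csf3, the granulocyte colony-stimulating factor, went from 7.39, 8.91 and 9.19 CPM to 20.4 to 21.5 CPM, and Tnfsf9, the ligand of the costimulatory receptor 4-1BB, rose by 1.03 ± 0.06 (SE).

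**Figure D2:**
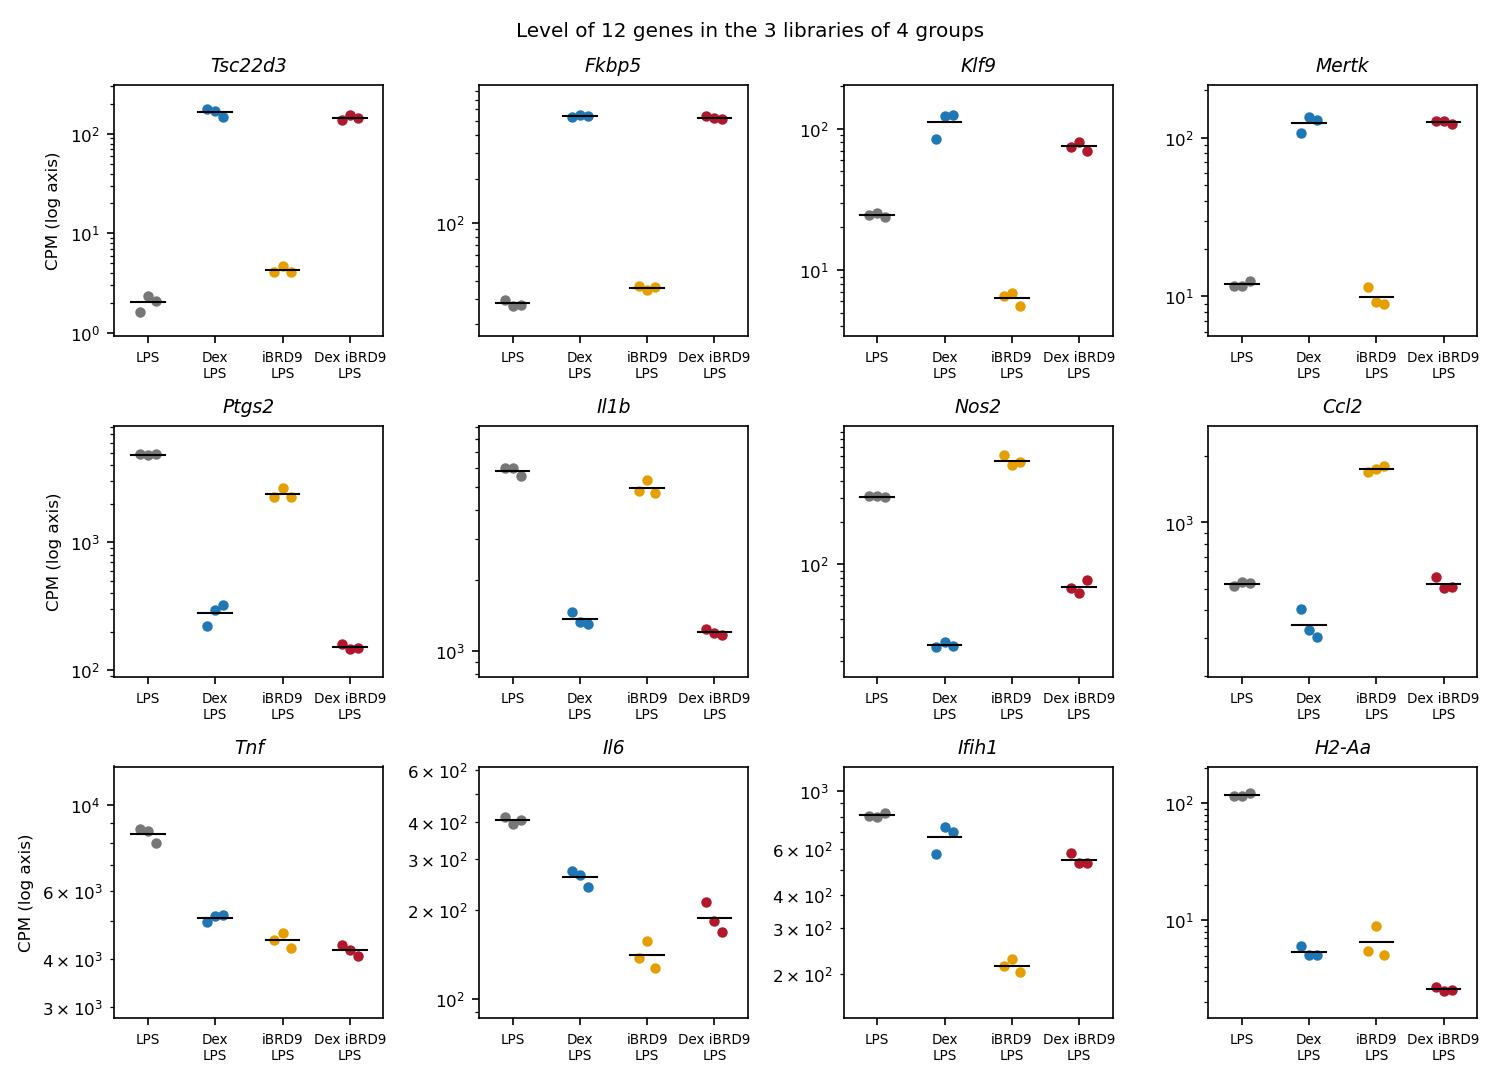
Each point is 1 library and each black line a group mean, in CPM on a log axis whose range differs between panels, for 12 genes in LPS, Dex + LPS, iBRD9 + LPS and Dex + iBRD9 + LPS. Tsc22d3, Fkbp5, Klf9 and Mertk are high in both groups with Dex; Ptgs2, Il1b, Nos2 and Ccl2 are lower with Dex in both pairs; Tnf, Il6, Ifih1 and H2-Aa differ less, or in the other direction, in the pair with iBRD9.

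Of 20 chemokine genes tested, 14 fell and 1, Cxcl9, rose, with a median log2 fold change of -0.64. The monocyte attractant Ccl2 stood at 1699, 1759 and 1803 CPM in iBRD9 + LPS and at 567, 502 and 511 CPM in Dex + iBRD9 + LPS (log2 fold change -1.74 ± 0.08, SE). Its neighbour in function Ccl7 fell by 2.22, Ccl4 by 1.77, Ccl3 by 0.97 and Ccl22, which attracts T cells that carry Ccr4, by 3.03 on the log2 scale. Cxcl10, a ligand of Cxcr3 that interferon induces, stood at 467, 486 and 491 CPM without Dex and at 379, 298 and 323 CPM with it (-0.53 ± 0.09). Cxcl9, another Cxcr3 ligand, rose from 4.78 to 7.06 CPM to 9.21 to 12.7 CPM.

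Genes that make lipid and gas mediators moved in both directions. Ptgs2, the inducible cyclooxygenase that makes prostaglandin precursors, lies on chromosome 1 (150100031 to 150108227). It stood at 2251, 2672 and 2248 CPM in iBRD9 + LPS and at 159.8, 147 and 149 CPM with Dex added. Its log2 fold change was -3.98 ± 0.11 (SE, edgeR adjusted p = 4.2e-18), a 15.7-fold lower level. Of 16 eicosanoid genes tested, 8 fell and 7 rose. Among those that rose were Pla2g7, an enzyme that breaks down platelet-activating factor (3.52 ± 0.07), and Ptges, the inducible prostaglandin E synthase (1.80 ± 0.07). Nos2, the inducible nitric oxide synthase, fell from 608, 515 and 548 CPM to 66.9, 62.5 and 77.2 CPM. Odc1, which turns ornithine into polyamines, fell by 2.24 ± 0.06 (SE), and the arginine transporter gene Slc7a2 rose by 1.03 ± 0.14.

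Of 26 genes for LPS sensing and proximal signalling, 19 were called higher and 0 lower, with a median of 0.39. Irak3, an inhibitor of Toll-like receptor signalling, stood at 69.4, 66.4 and 67.7 CPM without Dex and at 201, 196 and 199 CPM with it. Tlr13, a sensor of bacterial ribosomal RNA, rose from 33.1, 33.6 and 32.2 CPM to 256, 251 and 236 CPM, and Tlr7 rose by 2.37 ± 0.09 (SE) on the log2 scale. Ly96, the partner of Toll-like receptor 4 in binding LPS, rose by 1.09 ± 0.09. Of 20 genes for NF-kB subunits and their brakes, 8 rose and 5 fell. Tnip3, a brake on NF-kB, fell by 1.3 ± 0.05, and Rel fell by 0.47 on the log2 scale. The call of Rel was lost with DESeq2 (adjusted p = 0.069) and without each of the 6 libraries in turn (adjusted p = 0.067 to 0.11).

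Of 19 genes for MAP kinase phosphatases and mRNA decay factors, 11 fell and 4 rose, with a median of -0.31. Dusp2 rose by 0.81 ± 0.07 (SE), and Dusp4 fell by 0.93 ± 0.11 on the log2 scale. Of 22 immediate early transcription factor genes, 13 rose and 8 fell. Klf4, a factor of macrophage differentiation, rose from 2.92, 2.57 and 3.04 CPM to 26.0, 26.4 and 22.2 CPM, and Klf2, which restrains inflammatory genes, rose by 2.23 ± 0.10. Atf3, a repressor that LPS induces, fell from 676, 645 and 679 CPM to 125, 115 and 122 CPM, and Myc fell by 2.0 ± 0.11.

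Type I interferon-induced genes, which the signal of interferon beta switches on after LPS, were higher more often than lower. Of 57 tested, 28 were called higher and 6 lower, with a median log2 fold change of 0.18. Without replicate 1 of iBRD9 + LPS 17 were called higher, and without its replicate 2, whose levels of these genes were the highest of the group for the genes named below, 31. Of all genes, 2862 and 2962 were called higher in these 2 settings, beside 3251 with every library. The count for this list therefore rested partly on single libraries. The promoters of 4 genes are shown, since the response element of interferon-activated factors and the NF-kB element can be read there. They are the 250 bases before the RefSeq start on the gene's own strand (GRCm38.p6), 5′ to 3′. Capitals mark matches, on either strand, to the interferon-stimulated response element (GAAA, any 2 bases, GAAA) in Ifit3, Ifi205 and Cxcl10, and to the NF-kB element (GGG, any 2 bases, TT, any base, CC) in Cxcl10 and Il6. Ifit3 lies at chr19:34583279-34583528 (plus strand), Ifi205 at chr1:174031756-174032005 (minus strand), Cxcl10 at chr5:92348890-92349139 (minus strand) and Il6 at chr5:30012864-30013113 (plus strand).

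Ifit3: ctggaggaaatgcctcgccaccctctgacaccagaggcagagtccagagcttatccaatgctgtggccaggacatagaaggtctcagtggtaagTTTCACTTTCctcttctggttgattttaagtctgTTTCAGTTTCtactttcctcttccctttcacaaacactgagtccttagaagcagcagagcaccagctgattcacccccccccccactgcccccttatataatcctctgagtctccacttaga

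Ifi205: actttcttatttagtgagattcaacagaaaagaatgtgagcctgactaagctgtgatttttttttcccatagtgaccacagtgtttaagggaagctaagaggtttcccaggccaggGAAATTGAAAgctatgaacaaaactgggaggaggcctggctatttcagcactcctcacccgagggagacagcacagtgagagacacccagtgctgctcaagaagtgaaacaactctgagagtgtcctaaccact

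Cxcl10: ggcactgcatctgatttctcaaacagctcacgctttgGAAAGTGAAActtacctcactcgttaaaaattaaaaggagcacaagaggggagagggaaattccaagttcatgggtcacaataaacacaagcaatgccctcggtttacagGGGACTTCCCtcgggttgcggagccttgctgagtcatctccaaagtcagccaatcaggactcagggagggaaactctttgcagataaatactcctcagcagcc

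Il6: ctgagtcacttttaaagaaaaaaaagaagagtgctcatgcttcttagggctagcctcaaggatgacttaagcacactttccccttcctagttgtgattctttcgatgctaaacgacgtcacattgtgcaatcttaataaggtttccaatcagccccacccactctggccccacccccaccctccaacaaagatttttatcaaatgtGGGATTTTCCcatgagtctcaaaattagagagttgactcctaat

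Within 250 bases before to 50 after a start, 23 of 44 interferon-induced genes with a promoter in the table hold the interferon element, as do 386 of the 9606 genes tested that have one. The NF-kB element is held by 6 of 12 chemokine genes with a promoter and by 635 of the 9606. As shares of windows of the genes tested, these are 3.32% and 5.63%. Among windows of genes called at least 2-fold higher and lower with Dex, the interferon element occurs in 5.30% and 4.24%, and the NF-kB element in 6.53% and 5.30%.

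Ifit3, an interferon-induced antiviral protein, stood at 21.2, 33.0 and 21.8 CPM in iBRD9 + LPS. In Dex + iBRD9 + LPS it stood at 51.0, 35.3 and 36.6 CPM (log2 fold change 0.70 ± 0.19, SE, edgeR adjusted p = 0.0047). All 3 Dex libraries were above the others, 2 of them by little. Ifi205, of the Ifi200 family of DNA-binding proteins, went from 21.7, 33.1 and 22.7 CPM to 74.9, 63.8 and 59.2 CPM. Ifih1, the double-stranded RNA sensor MDA5, stood at 215, 229 and 204 CPM without Dex and at 579, 529.6 and 530.0 CPM with it. Its log2 fold change was 1.34 ± 0.08 (SE), and Ifi209 and Ifi204 rose by 2.12 and 1.14. Ifnb1, which encodes interferon beta itself, stood at 0.271 to 0.704 CPM without Dex and at 0.281 to 0.351 CPM with it, a difference not called (-0.50 ± 0.48, edgeR adjusted p = 0.42). Genes of the Ifi200, Gbp, Slfn, H2 and metallothionein families have near-identical copies, and how shared reads were counted is not given in the sources used here, so their single values are uncertain.

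Of 15 interferon-inducible GTPase genes, which attack the vacuoles of pathogens, 6 rose and 6 fell, and the sign of their median changed between alternatives (-0.09 to 0.09). Gbp2 fell from 1170.0, 1195 and 1125 CPM to 774, 762 and 795 CPM. Irgm2 stood at 35.7, 50.5 and 37.5 CPM without Dex and at 62.6, 55.2 and 59.5 CPM with it, so that the groups lay close to each other (0.52 ± 0.10, SE). Of 10 genes of MHC class II presentation, which show peptides to CD4 T cells, 7 fell and 0 rose. The summed dendritic and B cell markers given above were also lower with Dex. With iBRD9 the dendritic sum was mostly Itgax and Bst2, and the dendritic markers Flt3 and Zbtb46 were called higher. Without iBRD9 the dendritic sum was 1151 to 1220.2 CPM in LPS and 336 to 340.0 CPM in Dex + LPS. The part of these cells in the result was not tested. H2-Aa stood at 5.46, 8.95 and 5.0 CPM in iBRD9 + LPS and at 2.71, 2.47 and 2.53 CPM with Dex added (-1.32 ± 0.19). Cd74, the invariant chain, fell from 214, 259.7 and 203 CPM to 73.9, 68.7 and 69.8 CPM. Of 21 MHC class I genes, 9 fell and 5 rose. H2-D1 and H2-K1, the classical chains, fell by 0.72 and 0.67 on the log2 scale, and H2-Q6 and H2-Q7, of the non-classical Qa region, rose by 1.60 and 1.05.

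Of 24 Fc, complement and lectin receptor genes, 16 were called higher and 6 lower, with a median of 0.76. Clec4a1 rose from 27.6, 39.7 and 24.9 CPM to 356, 346 and 325 CPM, and Clec4e, the receptor Mincle for mycobacterial glycolipids, rose by 1.11 ± 0.06 (SE). Clec7a, the beta-glucan receptor dectin 1, fell from 152, 167 and 157 CPM to 18.1, 18.3 and 17.8 CPM. Mertk, a receptor tyrosine kinase for the uptake of apoptotic cells, stood at 11.4, 9.28 and 8.98 CPM without Dex and at 127, 127 and 122 CPM with it. Gas6, the ligand that bridges Mertk to dying cells, fell from 373, 353 and 393 CPM to 139, 131 and 137 CPM, and C1qa, a complement opsonin, rose by 1.94 ± 0.08. Cd163, the scavenger receptor for haptoglobin and haemoglobin, went from 0.339, 0.497 and 0.299 CPM to 20.1, 21.7 and 20.0 CPM (5.75 ± 0.22).

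Among the 15 genes with the largest rise at 10 CPM or more were several that were near 0 with the inhibitor alone. Jaml, a junctional adhesion molecule of leukocytes on chromosome 9 (45079183 to 45108534), had no count in the 3 libraries of iBRD9 + LPS and stood at 18.3, 18.2 and 17.1 CPM with Dex added. Against a floor of 3 counts over the group, its level was at least 459-fold higher. Hp, which encodes haptoglobin, had 1, 7 and 3 counts without Dex and 774, 705 and 698 with it. Mmp8, neutrophil collagenase, rose from 0.305, 0.663 and 0.299 CPM to 21.7, 22.6 and 24.3 CPM, and Lcn2, the iron-binding protein lipocalin 2, from 5.02, 5.43 and 4.23 CPM to 226, 222 and 220.4 CPM. The summed level of 12 neutrophil markers went from 1.28 to 2.68 CPM to 28.4 to 29.6 CPM. This was mostly through Mmp8 itself, so the sum is no separate result. Of the 12, 4 of 6 tested were called higher, 8 were under 1 CPM in all 6 libraries, and Ly6g and Mpo had no count. In LPS alone the sum was 25.2 to 34.6 CPM. The summed level of 10 stromal markers went from 0.983 to 2.03 CPM to 16.4 to 17.5 CPM, mostly through Pdgfrb, with Col1a1, Col1a2, Col3a1, Lum and Lepr without a count. The part of other cells in these results was not tested.

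Tgfbi, a secreted matrix protein on chromosome 13 (56609523 to 56639562), stood at 2.31, 2.78 and 2.14 CPM in iBRD9 + LPS and at 82.2, 78.8 and 71.7 CPM in Dex + iBRD9 + LPS (log2 fold change 5.01 ± 0.13, SE). In LPS alone it stood at 133, 117 and 114 CPM, so the inhibitor alone was the low group. March1, a ubiquitin ligase that removes MHC class II from the surface, was also lowest with the inhibitor alone, and its level with Dex added was above that of LPS, with 42.2 to 44.6 CPM in LPS, 1.05 to 1.86 CPM in iBRD9 + LPS and 61.1 to 76.2 CPM in Dex + iBRD9 + LPS. Kctd12 showed the opposite order, with 78.5 to 85.4 CPM in LPS, 498 to 574 CPM in iBRD9 + LPS and 156 to 166 CPM in Dex + iBRD9 + LPS. Brd9 itself stood at 38.9 to 45.2 CPM in LPS, at 25.3, 25.3 and 24.9 CPM in iBRD9 + LPS and at 29.5, 31.4 and 29.9 CPM in Dex + iBRD9 + LPS (0.27 ± 0.06). These 4 genes lay nearer the LPS level with Dex than without it. Tgfbi, March1 and Kctd12 are among the genes named for a large difference between the Dex effects with and without iBRD9. That difference uses the LPS and iBRD9 + LPS levels, so this order is partly built into the choice. How many of all genes show it was not counted. The cause was not tested, and the labels do not give the dose of inhibitor in each group. Mmp12, macrophage elastase, fell from 1928, 2122 and 1855 CPM to 267, 229 and 201 CPM, and 10 of 21 genes of matrix proteases and their inhibitors were called lower and 8 higher.

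Of 24 cholesterol synthesis genes, 23 fell and 0 rose, with a median of -1.07, and the one not called was Ebp (0.13 ± 0.09, SE). Sqle, the squalene epoxidase, stood at 75.2, 78.9 and 78.7 CPM without Dex and at 18.7, 19.6 and 16.7 CPM with it. Idi1, the isomerase that makes dimethylallyl diphosphate, fell by 1.89 ± 0.13 on the log2 scale. Of 23 LXR target and lipid handling genes, 7 rose and 11 fell. Abca1, which exports cholesterol, rose from 72.0, 65.0 and 67.1 CPM to 400.0, 413 and 394 CPM, Nr1h3, the sterol sensor LXR alpha, rose by 2.03 ± 0.08 and Apoe by 1.53 ± 0.07. Of 26 glycolysis genes, 12 fell and 6 rose. Pfkfb3, which makes the activator of phosphofructokinase, rose from 26.8, 29.2 and 25.3 CPM to 415, 419.5 and 412 CPM, and the hexokinase gene Hk3 fell by 1.5 ± 0.04.

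Of 22 genes of the unfolded protein and integrated stress responses, 14 rose and 5 fell, with a median of 0.68. Herpud1, a factor of protein disposal from the endoplasmic reticulum, stood at 99.0, 101 and 92.9 CPM without Dex and at 250.1, 252 and 239 CPM with it. Of 20 NRF2 targets, 11 rose and 4 fell, among them Hmox1, which breaks down haem, with a rise of 1.98 ± 0.07 (SE). Of 12 heat shock protein genes 4 rose and 4 fell, and of 22 p53 targets and apoptosis regulators 11 rose and 8 fell. Of 40 cell cycle genes, 20 rose and 12 fell, with a median of 0.27. Ccnb1, the mitotic cyclin B1, stood at 3.46, 4.60 and 3.46 CPM without Dex and at 13.3, 15.3 and 13.6 CPM with it. Ccnd1, a cyclin of the G1 phase, fell from 20.4, 26.0 and 22.1 CPM to 12.2, 10.7 and 9.74 CPM, and the proliferation marker Mki67 was not called (0.00 ± 0.09). With the filter at a mean of 10 CPM, which leaves fewer of these genes to test, 7 rose and 6 fell. Of all genes, 2398 rose and 2286 fell with that filter. The number of cell cycle genes left to test is not given here, so these counts give no share.

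Lysosome and autophagy genes fell by small steps. Of 31 tested, 21 were called lower and 6 higher, with a median of -0.26. Gpnmb, a lysosomal glycoprotein of macrophages, stood at 7878, 7733 and 7983 CPM without Dex and at 5159, 5077 and 5117 CPM with it. Genes of chromatin readers moved little. Of 11 non-canonical BAF subunit genes, Brd9, Bicral and Ss18 were called higher and Smarcc1 lower, all within 0.41 on the log2 scale. Of 8 BET and P-TEFb genes, Brd2 fell by 0.69 ± 0.05 (SE), Cdk9 fell by 0.26, and Brd3 and Ccnt1 rose by 0.41 and 0.32.

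**Figure D3:**
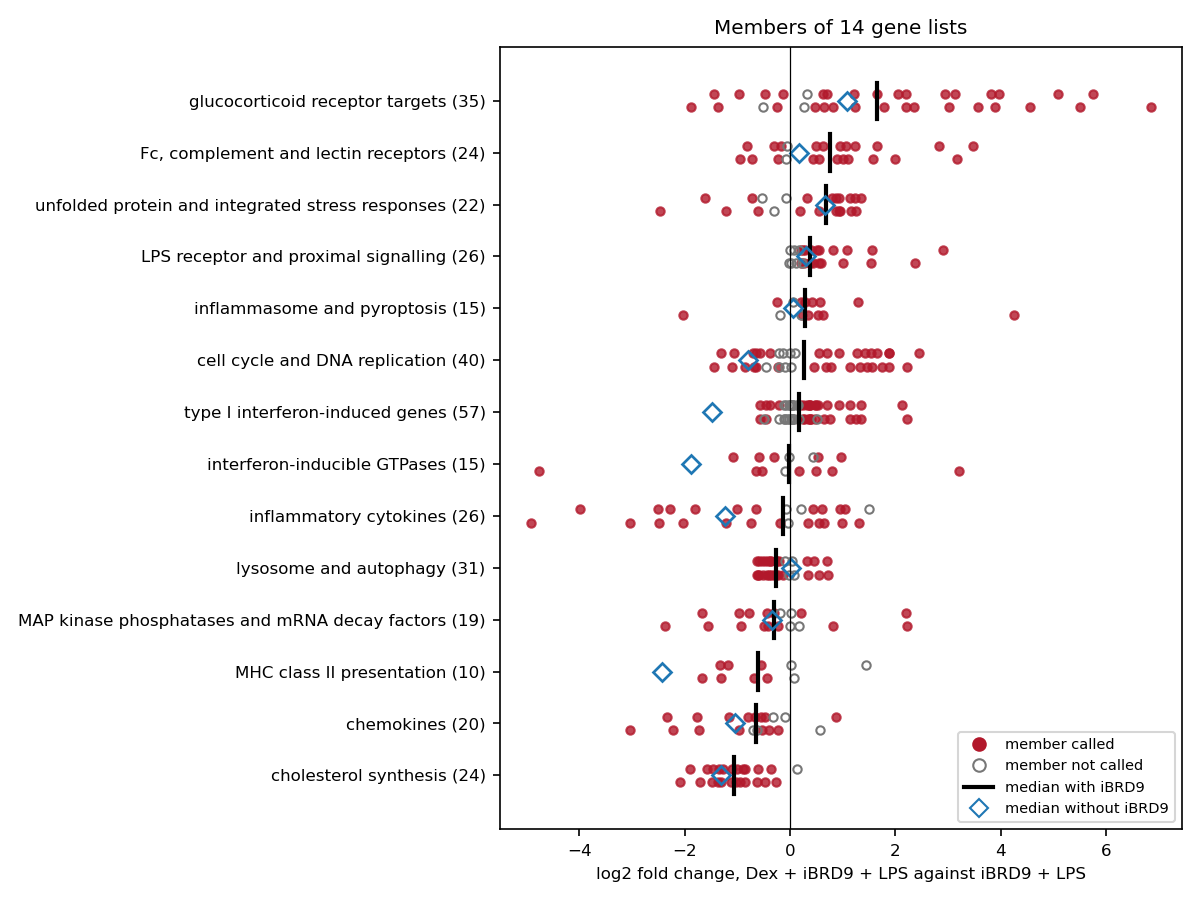
Each circle is a tested member of 1 of 14 gene lists (the number tested in parentheses), placed by its log2 fold change in Dex + iBRD9 + LPS against iBRD9 + LPS. Filled circles are called, open circles are not, the black bar is the list's median and the blue diamond is its median in Dex + LPS against LPS; the 2 medians lie far apart for the interferon-induced genes (0.18 and -1.48) and close together for the stress response genes (0.68 and 0.66).

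The same treatment was then read without the inhibitor, in Dex + LPS against LPS, which shares no library with the comparison above. There 3531 genes were called higher (27.9%) and 3485 lower (27.5%), 690 (5.45%) and 1164 (9.19%) of them by at least 2-fold. Of the 690 raised at least 2-fold without iBRD9, 564 were called higher with it, 121 were not called and 5 were called lower. Of the 1164 lowered at least 2-fold without iBRD9, 570 were called lower with it, 476 were not called and 118 were called higher. The at least 2-fold raised genes had 407 in common, which is 49.0% of the 830 and 59.0% of the 690, and the lowered genes had 362 in common, 59.1% of the 613 and 31.1% of the 1164. The 690 raised genes had a median log2 fold change of 1.52 without iBRD9 and 1.27 with it, and the 1164 lowered genes -1.68 and -0.62; the first value of each pair comes from the contrast that chose the genes. Across 12662 genes, which are not independent replicates, the 2 log2 fold changes had a Pearson correlation of 0.592 and a Spearman correlation of 0.501.

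**Figure D4:**
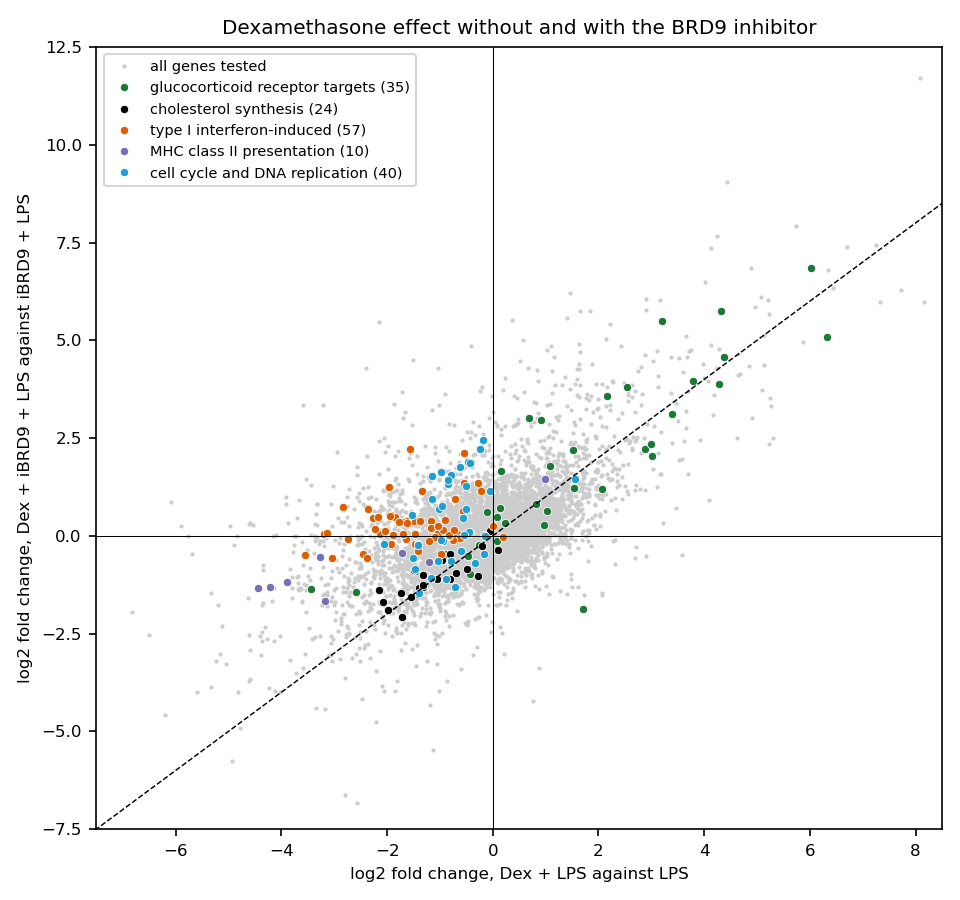
Each point is a gene, with its log2 fold change in Dex + LPS against LPS on the horizontal axis and in Dex + iBRD9 + LPS against iBRD9 + LPS on the vertical axis; the dashed line marks equal values. Green glucocorticoid receptor targets lie on both sides of the line (14 with a more positive and 11 with a more negative difference) and black cholesterol synthesis genes lie below 0 on both axes, while most orange interferon-induced, violet MHC class II and light blue cell cycle genes lie above it, to the left of 0.

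The difference between these effects was tested in the same fit as an interaction term, the Dex effect with iBRD9 minus that without it. It was called for 4210 genes (33.2%), 2186 more positive with iBRD9 (17.3%) and 2024 more negative (16.0%). At differences of at least 2-fold the numbers were 935 (7.38%) and 219 (1.73%). Without both libraries that stood apart, 2618 and 2495 were called. Of the 2186, 678 were called lower without iBRD9 and not called with it, 386 were called lower without and higher with it, 376 were called lower in both, 405 were not called without and higher with it, and 294 were called higher in both. Of the 2024, 661 were called higher without iBRD9 and not called with it, 205 were called higher without and lower with it, 374 were called higher in both, 505 were not called without and lower with it, and 235 were called lower in both.

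The interferon-induced genes differed in nearly all members. Dex without the inhibitor lowered 55 of 57, with a median of -1.48, and the difference was called more positive for 55, with Slfn2 the only one more negative. Ifit3 stood at 239.6, 223 and 227 CPM in LPS and at 62.2, 36.8 and 34.7 CPM in Dex + LPS, so its levels with Dex were close in both settings and its level without Dex was not. All 15 interferon-inducible GTPase genes fell without the inhibitor, and 14 had a more positive difference. For MHC class II, 8 of 10 fell without the inhibitor and 8 had a more positive difference. H2-Aa stood at 116, 115 and 121 CPM in LPS and at 6.07, 5.0 and 5.07 CPM in Dex + LPS, a log2 fold change of -4.44 beside -1.32 with iBRD9 (difference 3.12, edgeR adjusted p = 2.7e-09). Of 40 cell cycle genes, 34 fell and 1 rose without the inhibitor, and 28 had a more positive difference.

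Tnf and Il6 also differed. Tnf stood at 8680.0, 8589 and 8009 CPM in LPS and at 4981, 5152 and 5201 CPM in Dex + LPS, a fall of 0.72 on the log2 scale, and the difference of the Dex effects was 0.64. Il6 stood at 416, 395 and 407 CPM in LPS and at 273, 264 and 240.1 CPM in Dex + LPS (-0.65), with a difference of 1.07. Both genes were lower in iBRD9 + LPS than in LPS, as the values above show. Ccl2 went the other way: its 516, 536 and 531 CPM in LPS became 403, 325 and 303 CPM in Dex + LPS (-0.62), and the difference was -1.12. Il1b fell alike in size in both settings (-2.09 without and -2.04 with iBRD9), and the difference of 0.05 was not called. Ptgs2 likewise had a difference of 0.14 that was not called, and neither shows that the 2 effects are equal.

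Receptor targets differed in both directions. Of 35, 14 had a more positive and 11 a more negative Dex effect with iBRD9, and 22 rose and 5 fell without it. Tsc22d3 stood at 1.64, 2.34 and 2.10 CPM in LPS and at 177, 168 and 149 CPM in Dex + LPS (6.33), and the difference was -1.25. Its level with Dex was in the same range in both settings, while its level without Dex was higher in iBRD9 + LPS. Per1 and Dusp1 had differences of -0.96 and -0.67, and Klf9 and Cd163 of 1.4 and 1.44. Cholesterol synthesis genes fell in both settings, 22 of 24 without and 23 of 24 with iBRD9, and 8 of them had a called difference. Of 31 lysosome and autophagy genes, 12 rose and 11 fell without iBRD9, and 20 had a more negative difference.

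Dex was also given with the degrader. In Dex + dBRD9 + LPS against dBRD9 + LPS, which shares no library with the 6 libraries, 3680 genes were called higher (29.1%) and 3384 lower (26.7%), 737 (5.82%) and 1041 (8.22%) of them by at least 2-fold. The at least 2-fold raised genes had 426 in common with the 830, 51.3% of them and 57.8% of the 737, and the lowered genes 364, which is 59.4% of the 613 and 35% of the 1041. The difference of the Dex effect with iBRD9 minus that with dBRD9 was called for 3769 genes (29.8%), 1959 more positive and 1810 more negative. With scaling by library totals alone these numbers were 1672 and 2365. With the degrader, 52 of 57 interferon-induced genes fell and 1 rose, with a median of -1.09 beside 0.18 with iBRD9. Tgfbi rose by 0.40 with the degrader beside 5.01 with the inhibitor, and Tsc22d3 by 5.77 beside 5.08 on the log2 scale.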

How the data were processed

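RNA was sequenced from bone marrow-derived macrophages. The authors deposited 1 table of raw counts per gene for the experiment, with 35275 Ensembl identifiers in 21 libraries, of which 97.8% were paired with a symbol. The submitters' processing notes name the mm10 genome, fastp, STAR and DESeq2, without roles or versions. Counting, annotation and strand use were not given in the sources used here, and symbols came from GENCODE M21. The members and gene lists were chosen with earlier results of these data known.

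From the counts, all 21 libraries (7 groups) were fitted with edgeR 4.0.16 in R 4.3.3, with TMM factors, the filterByExpr filter (minimum count 10, minimum total 15) and the quasi-likelihood test. Benjamini-Hochberg adjustment ran over 12662 genes, and a gene was called at an adjusted p under 0.05. CPM values were computed here from the counts and TMM factors. The difference of Dex effects was a contrast of the same fit. In simulated data, 100 of 12662 genes were given a 1.5-fold and 100 a 2-fold change, and the rest none. In the comparison of Dex + iBRD9 + LPS with iBRD9 + LPS, 61% and 77% of these were recovered. In the difference with and without iBRD9, 40% and 70% were. Far more genes were called in the data, where the adjustment is less strict, so these rates do not carry over.

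Genes were named by a rule: a fixed set, the largest called changes at 10 CPM or more without overlap, and up to 6 called members of each list. Named genes outside it (Mt1, Sgk1, Ebp, Slfn2, Mki67, Pdgfrb, other cell type markers such as Flt3 and Zbtb46, and targets that fell) were chosen after their values were seen. Alternatives were other scalings and filters, DESeq2 1.42.0, limma 3.58.1 voom, only the groups compared, a replicate block and leaving out libraries. Leaving out both libraries that stood apart was chosen after seeing the data. The second experiment of the series was not used here, and a few genes are not reported here.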

Additional observations from a re-analysis of the deposited data

Results flagged for a closer look

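The Dex effect differed with and without iBRD9, by the edgeR interaction test, for 4210 genes, and between iBRD9 and dBRD9 for 3769 genes. The values below are log2 differences, the Dex effect with iBRD9 minus that without it, for genes named by rule whose difference was called.

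Among genes with a more positive Dex effect in the presence of iBRD9, the matrix genes Col15a1, Tgfbi and Tnc had differences of 4.83, 4.43 and 3.95. The value of Tnc rests on 1 library: without replicate 3 of Dex + iBRD9 + LPS it was -0.091 and not called (edgeR adjusted p = 0.67). The fractalkine receptor gene Cx3cr1 had 4.73, and Ly6c2 had 4.62, a fitted value that is no bound, since it had no count in iBRD9 + LPS. The cytokine gene Il1f9 had 4.30, March1 4.18, Ch25h, which makes 25-hydroxycholesterol, 4.11, P2ry14 3.96 and Ocstamp 3.73. Of the interferon family, Ifi206 had 4.13, Ifi213 3.78, Ifnb1 3.05 and Cxcl10 1.09, and H2-Aa of MHC class II had 3.12. Cd163 had 1.44, Klf9 1.4, Il6 1.07, Tnf 0.64, Nos2 0.53 and Brd9 0.46.

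Among genes with a more negative Dex effect in the presence of iBRD9, Prss16 had a difference of -2.88, P4ha2 -2.22 and Kctd12 -2.01. Tec had -1.96, Lifr -1.89, Snx30 -1.80, Gas6 -1.79, Arl4c -1.75, Tbc1d16 -1.74 and Klhl21 -1.60. The chemokine genes Ccl7 and Ccl2 had -1.69 and -1.12. Of the glucocorticoid receptor targets, Tsc22d3 had -1.25, Per1 -0.96, Dusp1 -0.67, Zfp36 -0.54 and Fkbp5 -0.39, and Il12b had -0.77.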

How the results depend on the processing

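Over 15 alternatives, 94 of 98 genes whose values the report gives kept their call and direction with Dex in the presence of iBRD9. The exceptions were Tnf and Rel, described there, and 2 genes not called. Mki67 had -0.012 with DESeq2 size factors and with DESeq2, -0.0074 without a filter, -0.0025 with only the groups compared, and -0.039 to 0.036 with 1 library left out. Slfn2 had 0.0064 with library totals. Of 39 called differences among the genes named by rule, 38 kept their call, and Tnc had -0.091 without replicate 3 of Dex + iBRD9 + LPS, in a leave-one-out range up to 4.50; the cause was not tested. With a mean of 10 CPM required in a group, which tests fewer genes, 355 and 251 genes were at least 2-fold higher and lower with Dex. Leaving out 1 library at a time gave 2862 to 2962 genes higher and 2697 to 2817 lower, and 1939 to 2465 more positive and 1709 to 2357 more negative differences. With library totals alone, LPS against vehicle called 2421 genes up and 8125 down, with 1230 and 4042 past 2-fold; the cause was not tested. The share of called genes that were higher was then 43.8% in place of 51.9% for the difference with and without iBRD9, 41.4% in place of 52.0% for the difference from dBRD9, 62.5% in place of 52.1% for Dex with dBRD9, and 55.8% in place of 51.6% for Dex with iBRD9. Replicate numbers did not pair the libraries of the 2 groups (correlations of deviations -0.22, -0.00 and 0.12). Between Dex + LPS and Dex + dBRD9 + LPS these correlations were 0.74, 0.44 and 0.56. In both of these groups the deviations followed exon length. The Spearman correlations were -0.68 and -0.52 in replicate 1 and 0.32 to 0.63 in replicates 2 and 3. In replicates 1, 2 and 3 they were -0.33, 0.43 and -0.07 in dBRD9 + LPS, and -0.24, 0.07 and 0.17 in Dex + iBRD9 + LPS. Each of these groups enters a difference of Dex effects, and the part of this trend in those differences was not tested. A replicate block gave 3296 genes higher and 3074 lower, and 2263 and 2079 called differences. Counts of 0 to 3 reads limit the folds of Jaml and Ly6c2.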
